A study of Mus musculus with 6 samples.

Results

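The 10 genes examined here encode proteins that coat lipid droplets or control the breakdown of the triglyceride stored in them. They are the perilipins Plin2, Plin3, Plin4 and Plin5, the CIDE proteins Cidea, Cideb and Cidec, the lipase gene Pnpla2, its inhibitor G0s2, and Hsd17b13. They were chosen by name out of 22180 genes with a probe of their own on the array. Each gene was read from the probe with the highest mean over the 6 arrays. Of the 10 genes, 9 had a probe of their own and 8 lay above the intensity filter and were tested. Cideb was read only by a probe shared with Nop9, and Cidea was too dim, so both are given as values apart from the tested genes.

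Liver RNA of male C57BL/6 mice, 8 weeks old when they were obtained, was measured on 6 Affymetrix arrays. A group of 3 arrays came from mice given Vascepa for 7 days and then a high-fat diet for 6 weeks, and a group of 3 came from mice given vehicle for 7 days and then the same diet for 6 weeks. Vascepa is a purified omega-3 drug, eicosapentaenoic acid in the form of its ethyl ester (icosapent ethyl). The comparison asks how these livers differed on the diet after the earlier dosing, and no group without the diet was analysed here. The labels number the samples from 1 to 3 in each group but do not say that they are separate animals, and the p-values therefore rest on a spread among samples that may be technical.

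Hepatocytes store surplus fatty acids as triglyceride in lipid droplets, and these droplets grow in number and size in fatty liver. Perilipins sit on the droplet surface and limit or direct the access of lipases. CIDE proteins move lipid from smaller to larger droplets. Adipose triglyceride lipase, the product of Pnpla2, removes the first fatty acid from triglyceride, and the G0s2 protein binds this lipase and blocks it. Hsd17b13 encodes a droplet-bound dehydrogenase of hepatocytes. Several of these genes are known targets of the PPAR receptors, which bind fatty acids.

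Before the members, 2 features of the arrays bear on every value. Vascepa replicate 3 stood apart from the other arrays, with a mean correlation of 0.938 across genes, against 0.959 to 0.973 for the other 5 arrays. The mean log2 level of 67 small nucleolar RNA genes was 5.82, 6.99 and 7.54 on Vascepa arrays 1, 2 and 3 and 5.96, 6.86 and 6.22 on vehicle arrays 1, 2 and 3, and its part in the results was tested only by fitting it as a covariate. Liver identity was clear in both groups, with albumin (Alb) between 13.18 and 13.33 on the Vascepa arrays and between 13.30 and 13.32 on the vehicle arrays (log2). All levels below are log2 RMA values, differences are Vascepa minus vehicle on that scale, and levels of different genes are not compared because their probes differ.

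The upstream sequences of genes on which the results turn are shown here, because Plin4 and Hsd17b13 were the tested members whose groups did not overlap, Cidec had the widest difference and Plin2 encodes the main perilipin of hepatocyte droplets. Each runs 5′ to 3′ in the direction of the gene, from 250 bases before the RefSeq start to 50 bases from it, in the build GRCm38.p6. Cidec has 2 windows because RefSeq lists more than 1 start, and its single probe does not tell which start was used. Capitals mark matches on either strand to short motifs that were picked after the windows had been seen. They are AGGTCA (the half-site read by PPAR and many other nuclear receptors), the TATA box letters TATAAA or its variant TATAAG, the CCAAT box, the E-box CACGTG and the GC box GGGCGG, and none of them overlaps another in the windows printed.
Plin4, chr17:56109733-56110032, minus strand: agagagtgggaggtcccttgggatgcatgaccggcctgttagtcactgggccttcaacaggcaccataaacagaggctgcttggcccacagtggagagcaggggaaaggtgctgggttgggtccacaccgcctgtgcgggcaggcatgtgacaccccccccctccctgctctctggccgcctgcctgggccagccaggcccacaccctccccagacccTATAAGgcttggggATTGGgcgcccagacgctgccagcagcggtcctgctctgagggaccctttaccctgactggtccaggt
Hsd17b13, chr5:103977339-103977638, minus strand: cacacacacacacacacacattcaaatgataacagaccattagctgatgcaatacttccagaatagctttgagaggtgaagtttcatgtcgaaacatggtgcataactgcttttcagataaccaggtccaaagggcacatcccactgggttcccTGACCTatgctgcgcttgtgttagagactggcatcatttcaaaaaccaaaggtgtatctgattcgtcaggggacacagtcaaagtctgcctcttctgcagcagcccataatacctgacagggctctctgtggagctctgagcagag
Plin2, chr4:86670010-86670309, minus strand: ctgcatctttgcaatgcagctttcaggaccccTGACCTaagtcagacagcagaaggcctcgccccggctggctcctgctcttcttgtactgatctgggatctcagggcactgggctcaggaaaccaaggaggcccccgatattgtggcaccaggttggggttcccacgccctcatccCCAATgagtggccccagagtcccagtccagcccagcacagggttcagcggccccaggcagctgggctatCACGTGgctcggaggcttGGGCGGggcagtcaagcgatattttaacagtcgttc
Cidec start 1, chr6:113435711-113436010, minus strand: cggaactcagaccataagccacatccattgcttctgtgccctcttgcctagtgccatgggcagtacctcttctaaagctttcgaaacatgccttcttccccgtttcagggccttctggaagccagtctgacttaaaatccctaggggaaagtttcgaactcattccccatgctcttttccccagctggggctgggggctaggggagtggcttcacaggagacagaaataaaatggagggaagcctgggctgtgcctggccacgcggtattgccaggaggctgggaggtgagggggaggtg
Cidec start 2, chr6:113434715-113435014, minus strand: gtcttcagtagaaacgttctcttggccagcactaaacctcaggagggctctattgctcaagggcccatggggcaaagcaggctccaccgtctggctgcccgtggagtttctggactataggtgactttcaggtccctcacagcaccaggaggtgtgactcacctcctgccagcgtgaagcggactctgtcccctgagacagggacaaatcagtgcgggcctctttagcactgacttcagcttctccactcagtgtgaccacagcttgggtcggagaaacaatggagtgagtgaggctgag

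The windows differ in the letters they hold. The Plin4 window has TATAAG 32 bases before the start and CCAAT, read on the other strand, 18 bases before it. The Hsd17b13 window holds AGGTCA on the other strand, 96 bases before the start. The Plin2 window holds AGGTCA on the other strand 218 bases before the start, CCAAT 73 bases before it, CACGTG 4 bases before it and GGGCGG 15 bases from it. None of the 6 short motifs was found in either Cidec window. The full PPAR response element AGGTCANAGGTCA, which contains AGGTCA, was in no window of the 9 members whose windows were read, with Cidea left out. This element was in 0.0396% of all 32851 RefSeq windows of this length. Among all these windows, AGGTCA was in 16.3%, TATAAG in 7.43%, TATAAA in 13.6%, CCAAT in 37.4%, CACGTG in 7.15% and GGGCGG in 35.7%. A match is only a run of letters, and no match says only that these letters are not in the window.

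Of the 8 members tested, 7 had a lower mean and 1 a higher mean in Vascepa livers, beside 60.1% of all 13493 genes tested with a lower mean. The members' median difference was −0.27, against −0.06 over all genes tested. These shares move with the intensity filter: with no filter 49.8% of all genes had a lower mean and the median was 0.0010, and with a filter at the 75th percentile, which all 8 members pass, 73.3% had a lower mean and the median was −0.14. None of the 8 passed (limma, Benjamini-Hochberg adjusted p under 0.05), where 0% of all genes did. At an unadjusted p under 0.05 there were 2 members, Plin4 and Cidec, both lower, against 1.64% of all genes that were lower at this level and 2.68% in either direction. The groups did not overlap, with Vascepa lower, in 2 of the 8, Plin4 and Hsd17b13, against 5.11% of all genes. In bulk liver RNA, fewer cells of a type and less RNA per cell cannot be told apart.

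**Figure D1:**
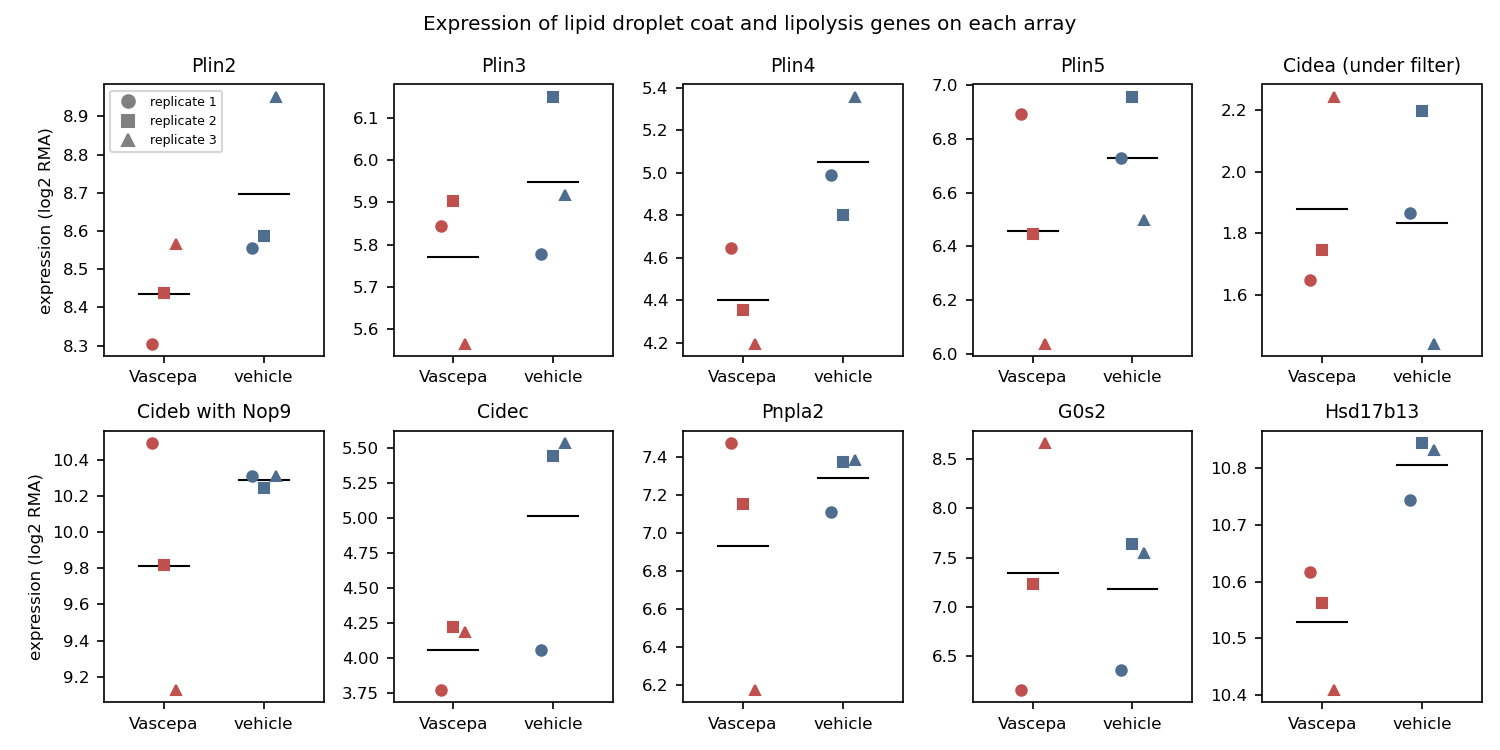
Log2 RMA expression of the 10 genes on each array, Vascepa left and vehicle right, with replicates 1 to 3 as circle, square and triangle, a bar at the group mean, and a separate vertical scale in each panel. Plin4 and Hsd17b13 show no overlap of the groups, G0s2 spreads from 6.16 to 8.66 within the Vascepa arrays, and the vehicle values of Cidec lie between 4.06 and 5.54.

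Among the perilipins, Plin4 showed the widest difference. Plin4, a perilipin best known from adipocytes, read 4.65, 4.35 and 4.20 on the Vascepa arrays, against 4.99, 4.80 and 5.36 on the vehicle arrays. All 3 Vascepa values lay below all 3 vehicle values. The means were 4.40 ± 0.23 in Vascepa livers and 5.05 ± 0.28 in vehicle livers (SD, n = 3 each), 1.57-fold lower with Vascepa. The difference was −0.65 ± 0.22 (SE), with a 95% interval from −1.16 to −0.14, and it missed the threshold (limma, adjusted p = 0.976).

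Plin2, the coat protein that rises with the fat content of hepatocytes, read 8.31, 8.44 and 8.57 on the Vascepa arrays, against 8.56, 8.59 and 8.95 on the vehicle arrays. The groups overlapped only in that the highest Vascepa value lay just above the lowest vehicle value. The difference was −0.26 ± 0.19 (SE), and its 95% interval, −0.70 to 0.18, spans 0 (limma, adjusted p = 0.976). This interval leaves room for folds, Vascepa over vehicle, between 0.614 and 1.13.

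Plin5, which ties droplets to mitochondria in tissues that burn fat, read 6.89, 6.45 and 6.04 on the Vascepa arrays, against 6.73, 6.96 and 6.50 on the vehicle arrays. Vascepa replicate 1 lay among the vehicle values and Vascepa replicates 2 and 3 below all of them. The difference was −0.27 ± 0.26 (SE) and became −0.06 without Vascepa replicate 3 and −0.49 without Vascepa replicate 1. Plin3, a widely expressed perilipin that moves between cytosol and droplets, read 5.84, 5.90 and 5.57 on the Vascepa arrays, against 5.78, 6.15 and 5.92 on the vehicle arrays. Its groups overlapped, and its difference of −0.18 ± 0.19 (SE) was the smallest among the perilipins in size. Neither gene passed (limma, adjusted p = 0.976 for each). Plin4 and Plin5 are neighbours on chromosome 17. The first Plin5 window also holds TATAAG, 27 bases before the start, beside matches to other motifs. The part of these letters in the values of either gene was not tested, and the differences of Plin4 and Plin5 were not compared with each other.

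The CIDE genes could be read in part. Cidec, also called Fsp27, whose protein drives droplet fusion and is strongly used in fatty liver, read 3.77, 4.22 and 4.19 on the Vascepa arrays, against 4.06, 5.45 and 5.54 on the vehicle arrays. The Vascepa values were close together, while vehicle replicate 1 lay among them and the other vehicle arrays lay above. The means were 4.06 ± 0.25 in Vascepa livers and 5.02 ± 0.83 in vehicle livers (SD, n = 3 each), 1.94-fold lower with Vascepa. The difference was −0.95 ± 0.39 (SE), with a 95% interval from −1.86 to −0.05 (limma, adjusted p = 0.976). It was −1.43 without vehicle replicate 1, −0.74 without vehicle replicate 2 and −0.69 without vehicle replicate 3.

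Cideb, the CIDE gene of hepatocytes with a part in the lipidation of secreted lipoproteins, shares its probe with Nop9. This probe read 10.49, 9.82 and 9.12 on the Vascepa arrays, against 10.32, 10.25 and 10.31 on the vehicle arrays. The Vascepa values were widely spread, with replicate 1 above all vehicle values, and the vehicle values were tight. In a fit over all probes the difference was −0.48 ± 0.33 (SE), and which of the genes the signal belongs to cannot be told apart. Cidea, the CIDE gene of brown fat, read between 1.65 and 2.24 on the Vascepa arrays and between 1.44 and 2.20 on the vehicle arrays. All these values lay under the filter level of 2.65, the median of all probes, so its difference of 0.04 carries no reading of a change.

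**Figure D2:**
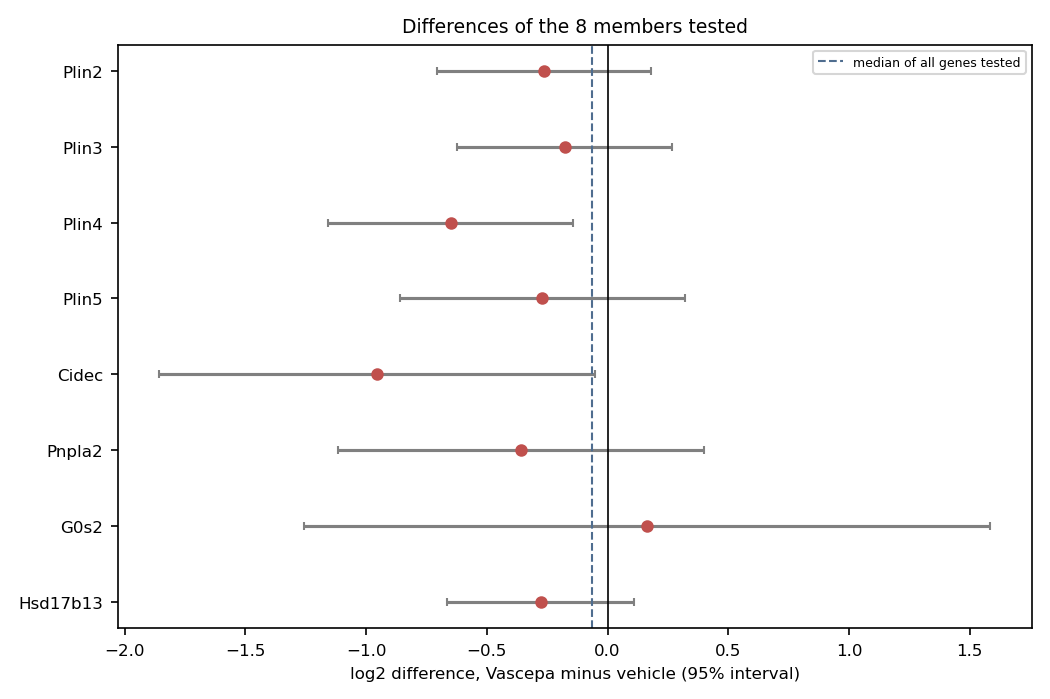
Log2 differences, Vascepa minus vehicle, of the 8 members tested, as points with 95% intervals from limma, with a solid line at 0 and a dashed line at the median of all genes tested, −0.06. The intervals of Plin4 and Cidec lie below 0, the other 6 span it, and the interval of G0s2 runs from −1.26 to 1.59.

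The lipase and its inhibitor both varied widely within the Vascepa group. Pnpla2 read 7.47, 7.15 and 6.17 on the Vascepa arrays, against 7.11, 7.37 and 7.38 on the vehicle arrays. Vascepa replicate 1 was the highest of the 6 arrays and Vascepa replicate 3 the lowest. The difference was −0.36 ± 0.33 (SE) and turned to 0.02 without Vascepa replicate 3. G0s2 had 2 probes of its own. The probe with the higher mean read 6.16, 7.23 and 8.66 on the Vascepa arrays, against 6.36, 7.64 and 7.55 on the vehicle arrays.

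Replicates of G0s2 within the Vascepa group thus lay further apart than the group means. The second probe had a like order in the Vascepa group, at 4.32, 5.38 and 6.82, against 4.30, 5.65 and 5.35 on the vehicle arrays. The difference was 0.16 ± 0.61 (SE) at the first probe (limma, adjusted p = 0.982) and 0.41 ± 0.64 (SE) at the second, in a fit over all probes. Without Vascepa replicate 3 the difference at the first probe was −0.49, and without vehicle replicate 1 it was −0.25. With the small nucleolar RNA level as a covariate it was −0.42. Vascepa replicate 3 held the highest G0s2 value, the highest small nucleolar RNA level and the lowest Pnpla2 value of the 6 arrays.

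**Figure D3:**
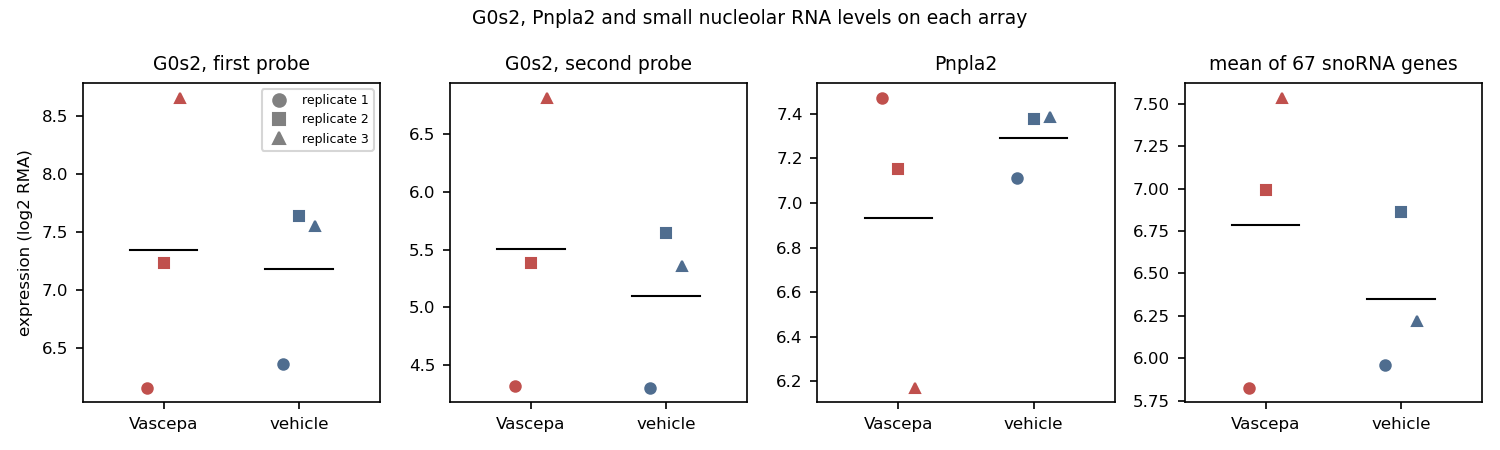
Log2 RMA levels of both G0s2 probes, of Pnpla2 and of the mean of 67 small nucleolar RNA (snoRNA) genes on each array, Vascepa left and vehicle right, with replicates 1 to 3 as circle, square and triangle and a bar at the group mean. Vascepa replicate 3 is the highest point in both G0s2 panels, at 8.66 and 6.82, and in the small nucleolar RNA panel, at 7.54, and the lowest in the Pnpla2 panel, at 6.17.

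Hsd17b13 was the steadiest member. It read 10.62, 10.56 and 10.41 on the Vascepa arrays, against 10.74, 10.84 and 10.83 on the vehicle arrays. All 3 Vascepa values lay below all 3 vehicle values. The means were 10.53 ± 0.11 in Vascepa livers and 10.81 ± 0.05 in vehicle livers (SD, n = 3 each), 1.21-fold lower with Vascepa. Its SD within groups, pooled over both, was 0.0856, against 1.02 in G0s2, the widest. The difference was −0.28 ± 0.17 (SE), with limma's SE drawn toward that of other genes (adjusted p = 0.976).

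Which members reached an unadjusted p under 0.05 changed when single arrays were left out, which also leaves fewer arrays for the fit. With all 6 arrays there were 2 members, and with 1 array left out there were between 0 and 2. None was left without Vascepa replicate 2 or without vehicle replicate 3. There was 1 left without Vascepa replicate 1, without Vascepa replicate 3 or without vehicle replicate 2. Without Vascepa replicate 2 the differences of Plin4 and Cidec were −0.63 and −1.04, against −0.65 and −0.95 with all 6 arrays. Without vehicle replicate 3 they were −0.50 and −0.69. The direction of 6 members, Plin2, Plin3, Plin4, Plin5, Cidec and Hsd17b13, was lower with every array left out. For Plin4 the difference then lay between −0.77 and −0.50, for Hsd17b13 between −0.32 and −0.22, and for Plin2 between −0.33 and −0.14.

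**Figure D4:**
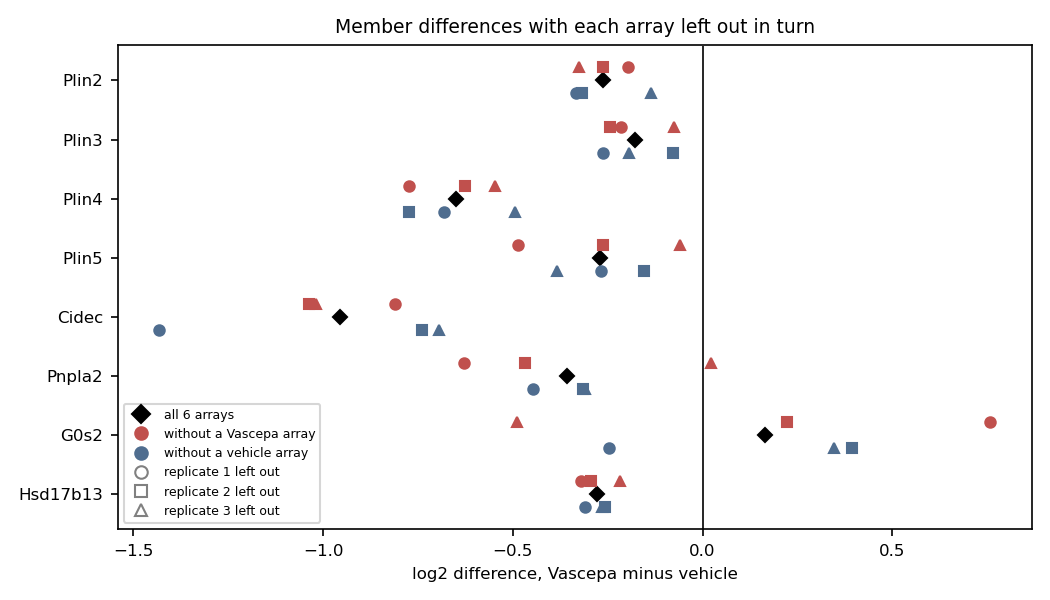
Log2 differences, Vascepa minus vehicle, of the 8 members with all 6 arrays (black diamonds) and with 1 Vascepa array (red) or 1 vehicle array (blue) left out, where the marker shape gives the replicate left out. The 6 members Plin2, Plin3, Plin4, Plin5, Cidec and Hsd17b13 stay below 0 throughout, while Pnpla2 reaches 0.02 and G0s2 runs from −0.49 to 0.76.

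Most other genes of droplet formation and lipolysis also had a lower mean in Vascepa livers. A list of 17 such genes had 16 tested members. Of these, 13 had a lower and 3 a higher mean in Vascepa livers, beside 60.1% of all genes with a lower mean. That share was 73.3% with the 75th percentile filter, which all 16 but Plin1, Lipe and Pnpla3 pass. The median difference of the 16 was −0.33, against −0.06 over all genes tested and −0.14 with that filter. None passed (limma, adjusted p = 0.976 for 15 of them and 0.979 for Abhd5), and 0 had an unadjusted p under 0.05, against 2.68% of all genes. The groups did not overlap, with Vascepa lower, in 4 of the 16, against 5.11% of all genes. Those 4 were Mgll, Lipe, Aup1 and Pcyt1a. In Pcyt1a the highest Vascepa value, 5.9276, lay only just below the lowest vehicle value, 5.9286. In Aup1 these values were 9.369 and 9.397, and in Mgll 6.486 and 6.524.

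Mgll, the lipase of monoglycerides and the last step of lipolysis, read 6.49, 6.10 and 6.05 on the Vascepa arrays, against 6.52, 6.55 and 7.03 on the vehicle arrays, a difference of −0.49 ± 0.22 (SE). Lipe, hormone-sensitive lipase, read 4.12, 4.02 and 3.87 on the Vascepa arrays, against 4.25, 4.37 and 4.52 on the vehicle arrays, a difference of −0.38 ± 0.18 (SE). Every Vascepa value of these genes lay below every vehicle value. The 3 genes with a higher mean were Plin1, the perilipin of adipocytes, Pnpla3, a lipase relative of hepatocyte droplets, and Hilpda, an inhibitor of the Pnpla2 lipase. They differed by 0.30 ± 0.22, 0.22 ± 0.26 and 0.10 ± 0.18 (SE). Abhd5, the activator of the Pnpla2 lipase, differed by −0.06 ± 0.20 (SE).

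**Figure D5:**
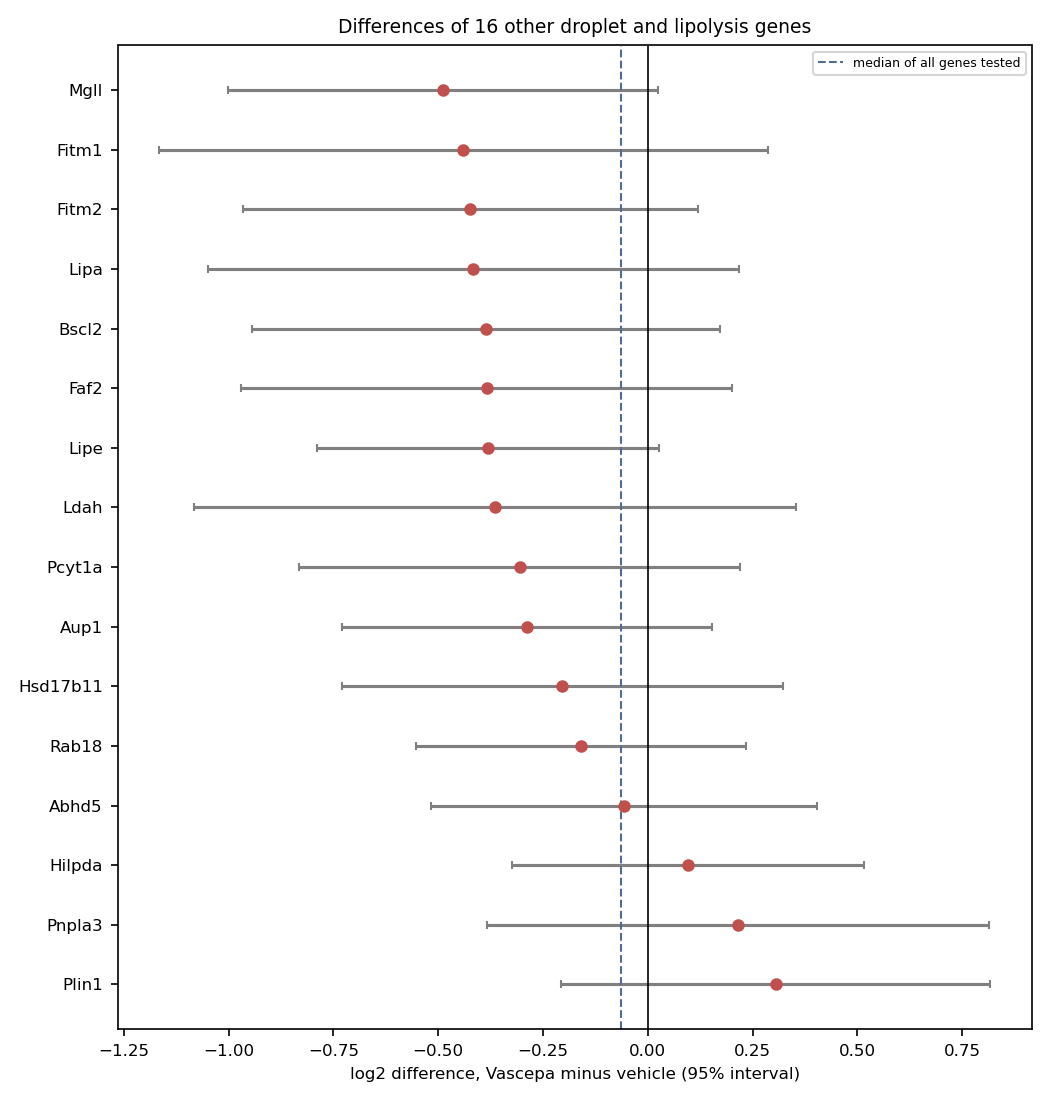
Log2 differences, Vascepa minus vehicle, of 16 other droplet and lipolysis genes, ordered by size, as points with 95% intervals from limma, with a solid line at 0 and a dashed line at the median of all genes tested. Of the 16 points 13 lie below 0, and the interval of every gene spans 0.

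Of 9 regulators of droplet genes tested, 7 had a lower mean in Vascepa livers and 2 a higher mean. Among all genes 60.1% had a lower mean, or 73.3% with the 75th percentile filter, which all 9 regulators pass. The median difference of the 9 was −0.29, against −0.06 over all genes tested and −0.14 with that filter, and 0 passed. Pparg, the receptor that drives Cidec in fatty liver, read 4.87, 4.86 and 4.999 on the Vascepa arrays, against 5.18, 5.14 and 6.03 on the vehicle arrays. Pparg was the 1 of the 9 whose groups did not overlap, with Vascepa lower, against 5.11% of all genes. The difference was −0.54 ± 0.26 (SE), with vehicle replicate 3 the highest of the 6 arrays (limma, adjusted p = 0.976). The part of Pparg in the Cidec values was not tested. Ppara, the receptor of hepatocyte fat burning, read 7.89, 7.43 and 6.70 on the Vascepa arrays, against 7.75, 7.59 and 7.82 on the vehicle arrays, a difference of −0.38 ± 0.30 (SE). Its Vascepa values ran from above to below all vehicle values.

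Markers of other cell types that use droplet genes were read beside these values. Of 9 adipocyte markers, 7 had a probe of their own and 3 lay above the filter, Retn, Plin1 and Fabp4, whose mean level was between 3.67 and 4.34 on the Vascepa arrays and between 3.68 and 3.97 on the vehicle arrays. The defining adipocyte genes Adipoq and Lep lay under the filter on all 6 arrays, at 1.27 to 2.25 on the Vascepa arrays and 1.45 to 1.95 on the vehicle arrays. Of 9 macrophage markers, 8 were tested, 6 were lower, and 3 had an unadjusted p under 0.05, Vsig4, Cd68 and Timd4, all lower, beside 60.1% of all genes with a lower mean and 1.64% lower at this level. Vsig4 and Cd68 differed by −0.53 ± 0.18 and −0.54 ± 0.20 (SE). Adgre1, Clec4f and Csf1r were lower by less, at −0.19, −0.09 and −0.10, with groups that overlapped. Marco and Trem2 were higher, at 0.06 ± 0.20 and 0.14 ± 0.20 (SE), and the median difference of the 8 was −0.14. The mean level of the 8 was between 5.36 and 5.55 on the Vascepa arrays and between 5.62 and 5.79 on the vehicle arrays. Macrophages also carry Plin2, and the part of these cells in the Plin2 values was not tested.

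Of 7 skeletal muscle markers, 5 were tested and 4 were higher, beside 5389 higher among all 13493 genes tested. Acta1 and Mb differed by 0.52 ± 0.18 and 0.41 ± 0.21 (SE). Acta1 was the 1 muscle marker with an unadjusted p under 0.05, against 2.68% of all genes, and 0 passed. The Acta1 groups did not overlap, with Vascepa higher, as in 423 of all 13493 genes tested. Tnnt3 was lower, at −0.12 ± 0.16 (SE), with groups that did not overlap, against 5.11% of all genes. The mean level of the 5 was between 3.81 and 4.09 on the Vascepa arrays and between 3.52 and 3.67 on the vehicle arrays. Muscle also uses Plin5 and Pnpla2, and its part in their values was not tested. Of 9 hepatocyte markers tested, 8 were lower, beside 60.1% of all genes, or 73.3% with the 75th percentile filter. Their median difference was −0.16. From the vehicle mean, their medians lay at 0.03, −0.10 and −0.46 on Vascepa replicates 1, 2 and 3. The members' own medians lay at −0.29, −0.25 and −0.54 on these arrays. On vehicle replicates 1, 2 and 3 the members' medians were −0.16, 0.14 and 0.17, and those of the hepatocyte markers 0.02, −0.04 and 0.01. Serpinc1 and F2 differed by −0.24 ± 0.20 and −0.21 ± 0.17 (SE). Stellate cell, endothelial and bile duct markers had medians of −0.06, −0.09 and 0.08, with 0 members at an unadjusted p under 0.05 in each list. In these lists the smallest p belonged to Lrat and Reln, at −0.19 ± 0.24 and −0.09 ± 0.32, to Pecam1 and Lyve1, at −0.43 ± 0.20 and −0.14 ± 0.25, and to Sox9 and Krt7, at −0.43 ± 0.34 and 0.30 ± 0.30 (SE).

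Genes whose array pattern was most like that of Plin2 or Cidec were ranked by Pearson's r over the 6 arrays among 13492 others, as a description with no test. For Plin2 they were C1qtnf1, Mir5099, AU022252, Ifi27l2b and Cd14, with r from 0.959 to 0.988. For Cidec they were Tax1bp3, Gtf2h3, Gstk1, Brms1 and Osbpl3, with r from 0.978 to 0.995. Gstk1, a glutathione transferase, read 9.22, 9.38 and 9.40 on the Vascepa arrays, against 9.33, 9.73 and 9.69 on the vehicle arrays, and like Cidec was low on vehicle replicate 1.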

How the data were processed

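The values deposited by the authors are log2 intensities, with 1 value for each transcript cluster on each array, made with Affymetrix Expression Console and RMA per the submitters' processing notes. RMA corrects background, quantile-normalizes the arrays and summarises probes on the log2 scale, which compresses differences of dim genes. Their versions were not given in the sources used here. Neither scan dates nor scanner files were at hand, so batches were not analysed here. The number of arrays limits the precision.

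Of 41345 probes, 23521 had 1 gene symbol in the platform annotation, 1814 had several and 16010 had no entry and stayed unnamed. Symbols were taken by gene ID from RefSeq (GRCm38.p6) for 23328 single-symbol probes, whether or not the symbol changed. Promoter windows came from RefSeq. Single-symbol probes whose mean reached the median over all probes (2.65) were kept, and the highest-mean probe represented each gene, which left 13493 genes. The fit used lmFit and eBayes of limma 3.58.1 (R 4.3.3) without covariate, Vascepa minus vehicle, and p-values were adjusted over all of them by the Benjamini-Hochberg method. The fit was tested on simulated data. The alternatives were the intensity filter, centring, quantile normalization again, a trended prior, array weights, the replicate number as a block, a small nucleolar RNA covariate, the mean of a gene's probes, and each array left out.

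The members and lists were chosen with earlier results of these data known. All 10 members were named, with, in each other list, the 2 genes of smallest p and, for Plin2 and Cidec, the 5 genes of most similar pattern (names of the form Gm with digits or ending in Rik left out). Aup1, Pcyt1a, Pnpla3, Hilpda, Abhd5, Timd4, Alb, Fabp4, Adipoq and Lep were named beyond this rule, most of them after their values were seen. So were Adgre1, Clec4f, Csf1r, Marco, Trem2 and Tnnt3, all after their values were seen.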

Additional observations from a re-analysis of the deposited data

How the results depend on the processing

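The direction of Plin2, Plin3, Plin4, Plin5, Cidec and Hsd17b13 was the same under all 15 alternatives, and 115 of the 120 member values kept their direction. The 5 that turned were Pnpla2 without Vascepa replicate 3 (0.023) and G0s2 with array weights (−0.12), with the small nucleolar RNA covariate (−0.42), without Vascepa replicate 3 (−0.49) and without vehicle replicate 1 (−0.25), and the cause was not tested. With single arrays left out Pnpla2 ranged from −0.63 to 0.02 and G0s2 from −0.49 to 0.76. The members' median lay between −0.40 and −0.22 over the alternatives. No gene passed in 13 of the 15. The covariate gave 2 genes, neither of them a member, and array weights gave 4100 genes, among them Plin2, Plin4, Cidec and Hsd17b13 (limma, adjusted p = 0.0204, 0.00261, 0.00750 and 0.0457), where Vascepa replicate 2 was weighted 39.5 and the other arrays 2.33 or less. Genes at an unadjusted p under 0.05 were 362, and became 757 with no intensity filter, 106 with the 75th percentile filter, where fewer genes were tested, 5902 with array weights and 816 with the covariate. They ranged from 141 to 2018 with single arrays left out (leaving out vehicle replicate 3 gave 141, vehicle replicate 1 gave 198, Vascepa replicate 2 gave 221 and Vascepa replicate 1 gave 2018). Members at this level were 2, and became 1 with quantile normalization again, 4 with array weights, and 0 to 2 with single arrays left out. Centring moved the share of lower genes among those at this level to 83.1%, against 61.0%, the 75th percentile filter to 86.8% and no filter to 45.7%. Centring moved the median of all genes to −0.14, against −0.06. Same-numbered samples did not deviate together in every pair (r of 0.606, 0.108 and −0.129). With 3 samples in each group this cannot decide whether same-numbered samples share a batch. Vascepa replicate 3 correlated best with vehicle replicate 2. With the replicate block 438 genes reached an unadjusted p under 0.05, 2 of them members, and 0 passed. Cidec had an unadjusted p of 0.0070 with the block and 0.041 without it, and Plin4 0.026 and 0.018 (limma). Dim genes such as Cidea lie where RMA shows little.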
